A study of Drosophila melanogaster with 16 samples.

Results

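The cytosolic ribosomal proteins of Drosophila melanogaster were measured in whole embryos of 2 lines in which heat shock switches on a head patterning gene, and in wild type. Their genes were found by symbol: a probe set belonged to the set when the stem of its identifier led to a FlyBase symbol that starts with RpL or RpS, or to sta. This gave 97 of 14038 probe sets, for 86 genes. Of these, 85 genes lay above a floor of 20 intensity units in at least 3 arrays and were tested, among 10127 named genes tested in all. The remaining gene, RpS28a, was at the floor in all 16 arrays. Of the tested genes, 65 are single-copy by name (40 of the large and 25 of the small subunit) and 20 are duplicated copies or relatives named "-like", which are described apart. No test was used to choose the genes.

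Ribosomal proteins coat and stabilise the ribosomal RNA. Those of the large subunit (RpL) surround the site where peptide bonds form, and those of the small subunit (RpS) surround the site where the messenger RNA is read. A ribosome needs nearly all of them in equal amounts, so their genes are usually transcribed strongly and in proportion in growing tissue. In flies, losing a copy of many of these genes gives the slow-growing, short-bristled Minute condition. Fly embryos also inherit a large store of ribosomes and ribosomal protein messenger RNA from the mother. Some ribosomal protein genes have a paralogue, often used in the germ line.

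The samples fell into 4 groups. Heat-shocked hsp-otd embryos (4 arrays) came from line 5A, in which the fly homeobox gene otd (current symbol oc) stands behind a heat shock promoter. Heat-shocked hsp-Otx2 embryos (4 arrays) carried the human relative Otx2 in the same way. Heat-shocked wild type (3 arrays) and untreated wild type (5 arrays) were Oregon-R. A heat shock promoter acts in most tissues of the embryo. The labels give no genetic background for either transgenic line. All embryos were at stages 10 to 17 and were reared at 25 °C. Collection of the heat-shocked groups lasted 12 h and ageing 4 h, and their heat shock of 25 min at 37 °C was followed by 25 min of recovery at 25 °C. No such times are given for untreated wild type. Each array was made from 25 µg of RNA out of 200 mg of pooled embryos, so fewer cells of a type and less RNA per cell cannot be told apart.

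The level of oc was 6.47 (SE 0.54, adjusted p = 4.29e-07) log2 units higher in hsp-otd than in heat-shocked wild type by limma, and that of the heat shock gene Hsp68 was 9.71 log2 units higher in heat-shocked than in untreated wild type. No probe set is named for the human Otx2. The mean deposited intensity was 785.9 to 997.8 in the hsp-otd arrays, 609.3 to 1016.4 in the hsp-Otx2 arrays, 460.2 to 650.2 in heat-shocked wild type and 598.7 to 999.1 in untreated wild type. A mean above 800 was found in 3 of 4 hsp-otd arrays, 2 of 4 hsp-Otx2 arrays, 0 of 3 heat-shocked wild type arrays and 2 of 5 untreated wild type arrays. Precision is set by the few arrays of each group. Whether arrays of a group came from separate embryo collections is not stated, so each p-value covers the spread between arrays and nothing more.

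Most ribosomal protein probe sets were among the brightest on every array. The median deposited intensity over the 85 genes was between 14366 and 18611 in all 16 arrays, while the median over all probe sets was between 111 and 278. The median over the 85 genes did not follow the brightness of the array. It was 15109 in heat-shocked wild type array 3, with a mean of 460.2, and 15173 in hsp-Otx2 array 3, with a mean of 1016.4. The median within-group standard deviation on the log2 scale was 0.16 for the ribosomal protein genes and 0.42 for all named genes. Whether intensities this high still follow the amount of RNA was not tested, so a small spread need not mean steady RNA levels. Levels and fold changes below are after quantile normalization, which gives every array the same distribution of values, unless stated otherwise. On the deposited values, before normalization, the genes held a share of the summed signal that depended on the array. In the hsp-otd arrays this share was 10.7%, 9.24%, 8.72% and 8.59%. In the hsp-Otx2 arrays it was 13.4%, 13.8%, 8.30% and 10.8%. It was 15.4%, 12.8% and 17.4% in heat-shocked wild type, and 14.0%, 13.8%, 14.1%, 8.27% and 8.38% in untreated wild type. The 7 arrays with a mean above 800 had shares of 8.27% to 10.8%, and the 9 others had shares of 10.7% to 17.4%. hsp-otd, hsp-Otx2 and untreated wild type each held arrays of both kinds, and heat-shocked wild type held dimmer ones alone.

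**Figure D1:**
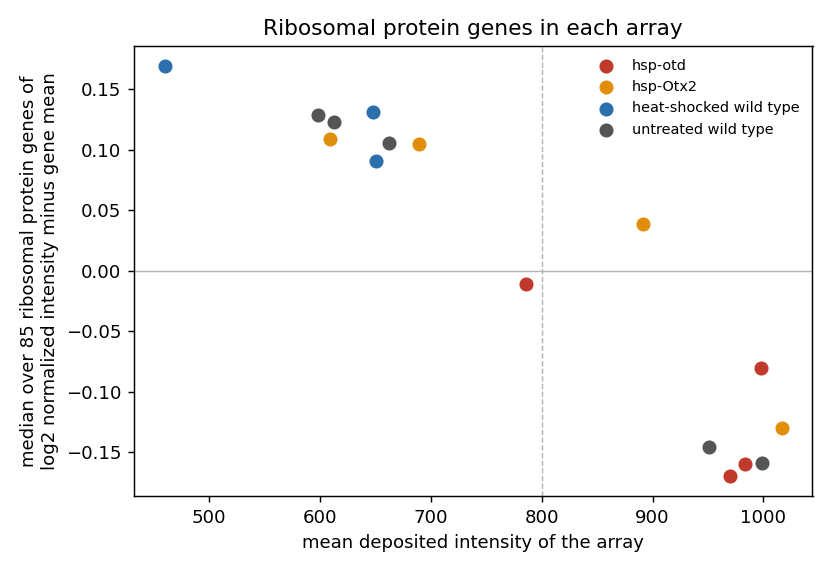
Each point is 1 array. The horizontal axis gives the mean deposited intensity of the array, and the vertical axis the median over 85 ribosomal protein genes of the log2 normalized intensity minus the gene's mean over arrays. The dashed line marks a mean of 800. The 4 hsp-otd arrays lie between -0.17 and -0.01, the 3 heat-shocked wild type arrays lie between 0.09 and 0.17, and the 5 untreated wild type arrays fall into 3 near 0.12 and 2 near -0.15.

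Between hsp-otd and heat-shocked wild type, more ribosomal protein genes were lower than higher in hsp-otd. By limma, at an adjusted p below 0.05, 32 of 85 genes were lower and 7 were higher, where 29.7% of all 10127 genes passed, 13% lower and 16.6% higher. The median log2 fold change was -0.24 over the 85 genes and 0.01 over all genes. Both subunits took part: 15 of 40 single-copy large-subunit genes and 13 of 25 single-copy small-subunit genes were lower, with medians of -0.25 and -0.30. The 3 single-copy genes that were higher, RpL19, RpL28 and RpL21, all belong to the large subunit. With a normalization fitted without the ribosomal protein probe sets 50 genes were lower and 5 higher, with a median log2 fold change of -0.43 over the members and 0.00 over all genes. Scaled to a common median, 35 were lower and 5 higher, with medians of -0.71 and 0.11. On the deposited values without normalization 9 genes were lower and 8 higher. There the median log2 fold change was -0.03 over the members and 0.72 over all genes. The count of 39 fell to 17 without hsp-otd array 3 or without heat-shocked wild type array 3, to 22 without hsp-otd array 4 and to 25 without heat-shocked wild type array 1. It was 20 (14 lower, 6 higher) when limma's variances were not tied to the level.

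**Figure D2:**
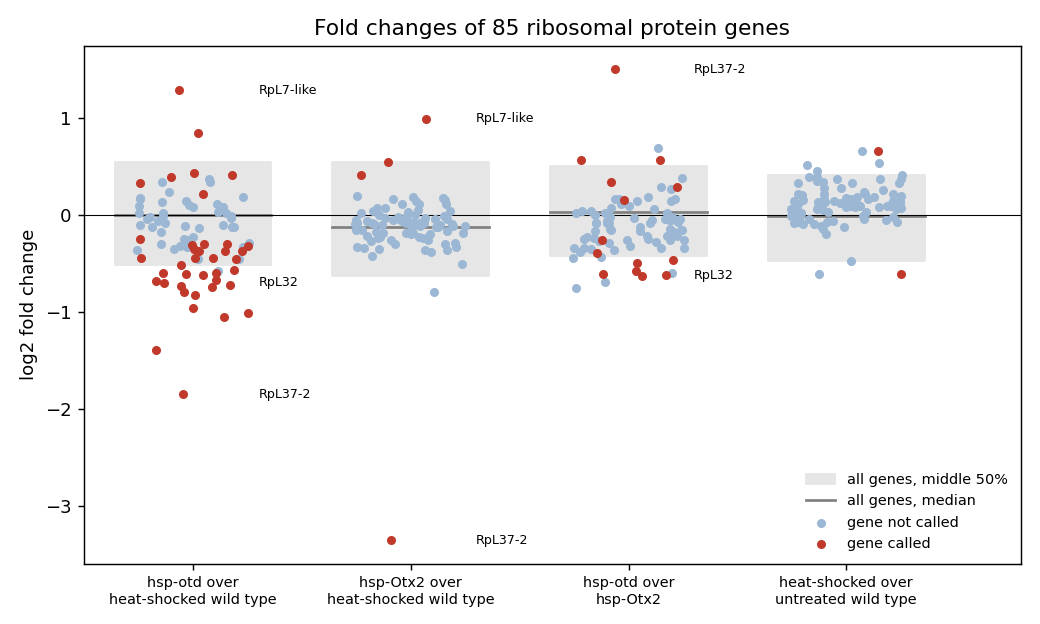
Each point is 1 of 85 ribosomal protein genes. The vertical axis gives the log2 fold change in the comparison named below it, red points passed at an adjusted p below 0.05, and the grey box and line give the middle 50% and the median of all 10127 named genes. In hsp-otd over heat-shocked wild type 32 red points lie below 0 and 7 above, in hsp-Otx2 over heat-shocked wild type 1 below and 3 above, in hsp-otd over hsp-Otx2 8 below and 6 above, and in heat-shocked over untreated wild type 1 below and 1 above.

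Small-subunit genes had the lowest fold changes among the single-copy genes. RpS29, which encodes a small zinc-binding protein of the subunit's head, had 8503, 6508, 5422 and 5894 units of normalized intensity in the hsp-otd arrays, against 17859, 14163 and 19396 in heat-shocked wild type. This gave -1.39 (SE 0.41, adjusted p = 0.0186) on the log2 scale, with an adjusted p of 0.0665 without heat-shocked wild type array 3. The same gene had 14898, 14425, 4764 and 9103 in the hsp-Otx2 arrays and 15579, 15922, 16471, 6059 and 5762 in untreated wild type. In those groups the low values were those of hsp-Otx2 arrays 3 and 4 and untreated arrays 4 and 5, which are the brighter arrays of each group.

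RpS3, which lies where the messenger RNA enters and is also known as a DNA repair enzyme, had 12081, 11184, 10130.0 and 9478 in hsp-otd, against 19973, 19311 and 23188 in heat-shocked wild type. The log2 fold change was -0.96 (SE 0.19, adjusted p = 0.00136). RpS25, with a log2 fold change of -1.01 (adjusted p = 0.0114), had 7029.6 to 11158 in hsp-otd and 16548 to 18796 in heat-shocked wild type. In these 3 genes every hsp-otd array lay below every heat-shocked wild type array. RpS27, another zinc-binding protein, had a log2 fold change of -0.73 (adjusted p = 0.00248). For sta, the fly RpSA, which was first described as a laminin receptor, it was -0.82 (adjusted p = 0.00968). RpS6, the substrate of S6 kinase, fell by 0.56 on the log2 scale (adjusted p = 0.0281), with 10757 to 12800.4 in hsp-otd and 15276 to 18740.2 in heat-shocked wild type. The RpS6 call was lost without hsp-otd array 3 or 4 or heat-shocked wild type array 1 or 3 (adjusted p between 0.0574 and 0.0997).

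Of the large subunit, RpL17 had 10083, 8396, 7482 and 7622 in hsp-otd, against 15052, 12039 and 16641 in heat-shocked wild type. The log2 fold change was -0.79 (SE 0.28, adjusted p = 0.0445), and the probe set is of a kind shared between transcripts. RpL18 had a log2 fold change of -0.72 (adjusted p = 0.0109), and its hsp-otd and heat-shocked wild type arrays did not overlap. RpL40, made as a fusion with ubiquitin, had 14536 to 17938 in hsp-otd and 21978 to 30609 in heat-shocked wild type. Its log2 fold change was -0.67 (adjusted p = 0.00249). The other ubiquitin fusion, RpS27A, did not pass, at -0.28 (adjusted p = 0.149). In the acidic stalk that recruits elongation factors, RpLP1 fell by 0.36 on the log2 scale (adjusted p = 0.0409) while its base protein RpLP0 was at 0.14 (adjusted p = 0.181). RpL5 and RpL11, which bind a small ribosomal RNA of the large subunit, had log2 fold changes of -0.32 (adjusted p = 0.069) and -0.09 (adjusted p = 0.235) and did not pass. The calls of RpL17 and RpLP1 were lost without hsp-otd array 3 or 4 or heat-shocked wild type array 3, where the last gave adjusted p of 0.147 and 0.12. That of RpL17 was also lost without hsp-otd array 2 or heat-shocked wild type array 1, and that of RpLP1 whichever array of these groups was left out (adjusted p between 0.0504 and 0.12).

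The single-copy genes that were higher in hsp-otd changed less. RpL19, whose long tail bridges the subunits, had 16337, 16471, 18228 and 17553 in hsp-otd, against 12872, 13397 and 12911 in heat-shocked wild type. This gave 0.39 (SE 0.11, adjusted p = 0.0164) on the log2 scale. RpL28 was higher by 0.33 (adjusted p = 0.00288) and RpL21 by 0.22 (adjusted p = 0.0413) on the log2 scale. RpL21 did not pass without hsp-otd array 1, 2 or 3 or heat-shocked wild type array 2 or 3 (adjusted p between 0.0623 and 0.134). Scaling each array to a common median turned the sign of all 3 genes, to -0.01 for RpL19, -0.17 for RpL28 and -0.18 for RpL21. RpL19 itself was not level across arrays of 1 group, with 12289, 14163, 11484, 15789 and 16597 in untreated wild type, the last 2 being the brighter arrays.

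The same genes differed between arrays of untreated wild type, where no treatment differed. The 2 brighter untreated arrays were set against the 3 dimmer ones, as a description with no test. All 32 genes that were lower in hsp-otd were also lower in the brighter untreated arrays, with a median log2 difference of -0.49 beside a median log2 fold change of -0.59 in hsp-otd. So were 65 of all 85 members, 31 of the 46 members not called and 4527 of all 10127 genes. In the 2 brighter hsp-Otx2 arrays 31 of the 32 were lower than in the 2 dimmer ones, as were 59 of all 85 members and 4793 of all genes. Over the 85 genes the hsp-otd fold change and the difference within untreated wild type had a Pearson correlation of 0.82 across genes, which share the arrays and are not independent replicates. Over all 10127 genes the correlation was 0.39. Brightness and group were not independent, since 3 of 4 hsp-otd arrays and 0 of 3 heat-shocked wild type arrays were bright.

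**Figure D3:**
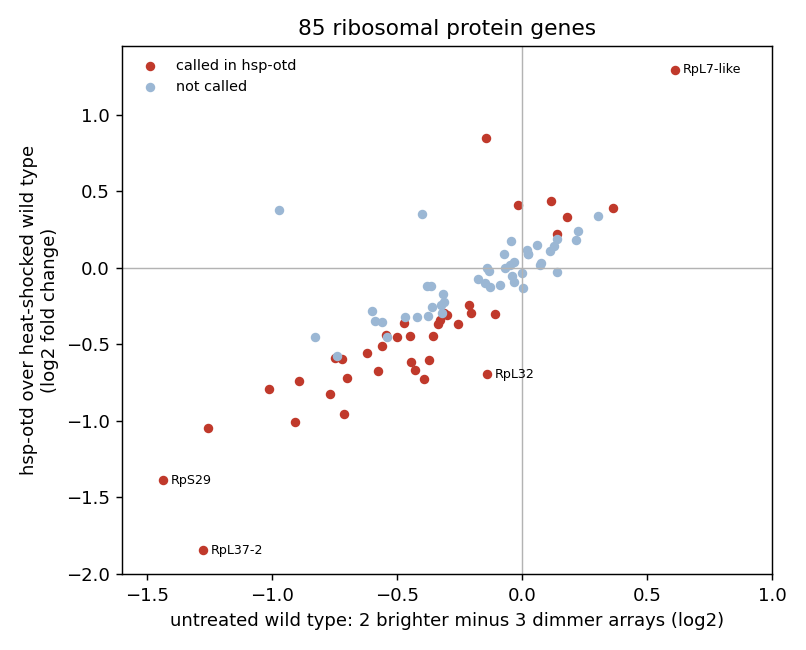
Each point is 1 of 85 ribosomal protein genes, red where it passed in hsp-otd over heat-shocked wild type. The horizontal axis gives the log2 difference between the 2 brighter and the 3 dimmer arrays of untreated wild type, and the vertical axis the log2 fold change of hsp-otd over heat-shocked wild type. RpS29 lies at -1.44 and -1.39, and RpL32 at -0.14 and -0.70.

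With the log2 of each array's mean deposited intensity as a covariate, a fit chosen after seeing the data, 2 genes were lower and 3 higher in hsp-otd than in heat-shocked wild type. The 2 lower genes were RpL32 and RpS3, at -0.51 (SE 0.08, adjusted p = 0.000963) and -0.39 (SE 0.11, adjusted p = 0.0319). RpL7-like and RpL34a were among the 3 higher ones. Of the 39 genes called without the covariate, 4 were still called in the same direction. Among only the 9 dimmer arrays, which leave 1 hsp-otd array assumed to vary like the other groups, 14 genes were lower and 1 was higher. The median log2 fold change was 0.00 over the members and 0.00 over all genes with the covariate, where 11.7% of all genes passed. Among the dimmer arrays it was -0.15 over the 84 members tested and 0.01 over all genes, of which 5.21% passed. RpS29 was at -0.11 (adjusted p = 0.814) with the covariate and at -1.25 (SE 0.17, adjusted p = 0.00658) among the dimmer arrays, and RpS3 at -0.94 (SE 0.11, adjusted p = 0.00326) among the dimmer arrays.

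RpL32, the large-subunit gene long used as a reference transcript in fly work under the name rp49, stood out among the lower genes. It was ranked outside the 8 lowest fold changes against heat-shocked wild type and is named there because of its values. Its normalized intensity was 15137, 12614, 13058 and 12568 in hsp-otd and 21398, 22818, 17989 and 20054 in hsp-Otx2, against 20839, 22659 and 21274 in heat-shocked wild type and 21744, 21577, 20558, 19764 and 18878 in untreated wild type. Every hsp-otd array lay below every array of the other 3 groups. The log2 fold change was -0.70 (SE 0.09, adjusted p = 3.17e-05) over heat-shocked wild type and -0.62 (SE 0.08, adjusted p = 1.86e-05) over hsp-Otx2. Within untreated wild type the brighter arrays differed from the dimmer ones by -0.14 on the log2 scale. Among the dimmer arrays alone the fold change over heat-shocked wild type was -0.57 (SE 0.09, adjusted p = 0.00942). In hsp-Otx2 the value over heat-shocked wild type was -0.07 (adjusted p = 0.546) and did not pass.

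Between hsp-Otx2 and heat-shocked wild type few ribosomal protein genes passed. By limma 3 of 85 genes were higher and 1 was lower, where 38% of all genes passed, 18.1% higher and 20% lower. All 4 were duplicated or "-like" genes, and 0 of the 65 single-copy genes passed. The median log2 fold change was -0.09 over the 85 genes and -0.12 over all genes, or -0.38 and -0.02 with arrays scaled to a common median. The single-copy genes ranged from -0.79 for RpS29 to 0.19 on the log2 scale. RpS3 was at -0.38 (adjusted p = 0.126), RpS6 at -0.19 (adjusted p = 0.449), RpL40 at -0.34 (adjusted p = 0.0758) and sta at -0.22 (adjusted p = 0.453). For RpS29 the hsp-Otx2 arrays, given above, overlapped those of heat-shocked wild type (adjusted p = 0.146). At an unadjusted p below 0.05 limma gave 6 of the 65 single-copy genes, and without a trend of variance on level it again called 0. With a normalization fitted without the ribosomal protein probe sets 3 genes were higher and 4 lower, and without heat-shocked wild type array 1 the count of 4 became 7.

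**Figure D4:**
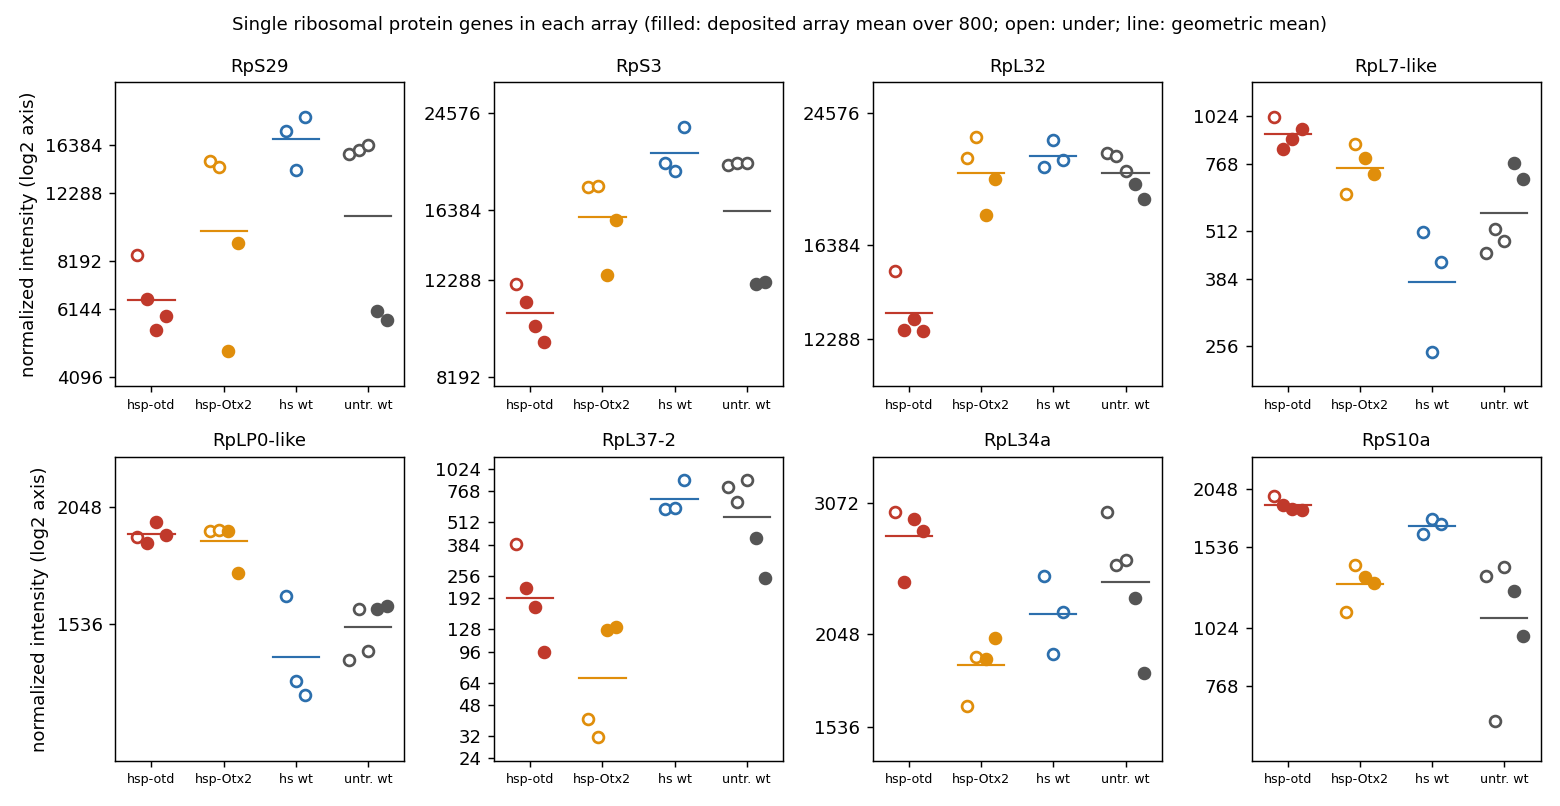
Each panel shows 1 gene. Each point is 1 array, placed by group, with the normalized intensity on a log2 axis. Filled points are arrays with a deposited mean over 800, open points those under it, and lines are geometric means. RpL37-2 is lower in both transgenic lines than in heat-shocked wild type (hs wt), RpL32 is lower in hsp-otd than in every other group, and in RpS29 filled points lie below open points within hsp-otd, hsp-Otx2 and untreated wild type (untr. wt).

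The "-like" genes RpL7-like, RpLP0-like and RpL24-like are related to proteins that in yeast assemble the large subunit and are not part of the finished ribosome. RpL7-like had 1019, 839, 892 and 948 in hsp-otd and 642, 867, 794 and 721 in hsp-Otx2, against 509, 247 and 424 in heat-shocked wild type and 449, 519, 483, 774 and 701 in untreated wild type. Both transgenic lines lay above heat-shocked wild type in every array. Over heat-shocked wild type it was at 1.29 (SE 0.23, adjusted p = 0.000576) in hsp-otd and 1.00 (SE 0.23, adjusted p = 0.00255) in hsp-Otx2. The brighter untreated arrays were above the dimmer ones by 0.61 on the log2 scale. With brightness as a covariate both calls were kept, at 1.09 (SE 0.30, adjusted p = 0.0264) and 0.87 (SE 0.26, adjusted p = 0.0193). Among the dimmer arrays both calls were lost, at 1.40 (adjusted p = 0.0806) and 0.97 (adjusted p = 0.0562).

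RpLP0-like had 1904, 1874, 1973 and 1913 in hsp-otd and 1931, 1935, 1932 and 1741 in hsp-Otx2, against 1646, 1333 and 1287 in heat-shocked wild type and 1406, 1594, 1437, 1592 and 1606 in untreated wild type. It was higher by 0.44 (SE 0.09, adjusted p = 0.00172) in hsp-otd and by 0.41 (SE 0.09, adjusted p = 0.00161) in hsp-Otx2 on the log2 scale. Both lines lay above all 8 wild type arrays. The hsp-otd call was lost with brightness as a covariate, at 0.35 (adjusted p = 0.0572), and among the dimmer arrays, at 0.43 (adjusted p = 0.197), while the hsp-Otx2 call was kept in both, at 0.36 (adjusted p = 0.0117) and 0.45 (adjusted p = 0.0455). RpL24-like had 4416, 4714, 4386 and 4796 in hsp-otd and 3701, 3271, 3720.4 and 3786 in hsp-Otx2, against 3249, 2940.4 and 4246 in heat-shocked wild type. It was higher in hsp-otd than in heat-shocked wild type, by 0.41 (SE 0.11, adjusted p = 0.0105), and higher than in hsp-Otx2, by 0.34 (SE 0.10, adjusted p = 0.0175). In hsp-Otx2 the log2 fold change over heat-shocked wild type was 0.07 (adjusted p = 0.643). The standard partners RpL7, RpLP0 and RpL24 had log2 fold changes in hsp-otd of -0.44 (adjusted p = 0.027), 0.14 (adjusted p = 0.181) and -0.03 (adjusted p = 0.836). In hsp-otd over heat-shocked wild type RpL24-like did not pass with the covariate, at 0.44 (adjusted p = 0.0668), or among the dimmer arrays, at 0.36 (adjusted p = 0.384). It also did not pass without heat-shocked wild type array 2 (adjusted p = 0.0662), nor between the lines without hsp-otd array 4 or hsp-Otx2 array 2 (adjusted p = 0.0511 and 0.0617). Between the lines its call was kept by limma with the covariate, at 0.35 (adjusted p = 0.0222), and lost among the dimmer arrays, at 0.34. The RpL7 call was lost without hsp-otd array 3 or 4 or heat-shocked wild type array 1 or 3 (adjusted p between 0.0561 and 0.0918).

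RpL37-2, which forms a pair with RpL37-1, was lower in both transgenic lines. It had 385, 219, 170.2 and 95.2 in hsp-otd and 39.9, 31.6, 127 and 132 in hsp-Otx2, against 609, 617 and 882 in heat-shocked wild type and 814, 668, 882, 420.0 and 248 in untreated wild type. Both lines lay below heat-shocked wild type in every array. Over heat-shocked wild type it was at -1.85 (SE 0.57, adjusted p = 0.023) in hsp-otd and -3.35 (SE 0.57, adjusted p = 0.00023) in hsp-Otx2. hsp-otd was above hsp-Otx2 by 1.51 (SE 0.53, adjusted p = 0.0408), although the arrays of the lines overlapped. Without hsp-otd array 3 or 4 or heat-shocked wild type array 3 the hsp-otd fall was lost (adjusted p = 0.0507, 0.0717 and 0.0817), and the difference between the lines was lost on leaving out any 1 of 5 arrays, hsp-otd array 1, 2 or 3 or hsp-Otx2 array 1 or 2 (adjusted p between 0.0633 and 0.139). The log2 difference of brighter minus dimmer arrays was 1.86 within hsp-Otx2 and -1.28 within untreated wild type. By limma with brightness as a covariate the hsp-otd fall was lost, at -1.55 (adjusted p = 0.225). The hsp-Otx2 fall was kept, at -3.16 (adjusted p = 0.00195), as was the difference between the lines, at 1.61 (adjusted p = 0.0415). Among the dimmer arrays, with 1 of hsp-otd, the hsp-otd fall was also lost, at -0.83. There hsp-Otx2 was at -4.43 over heat-shocked wild type. RpL37-1 had log2 fold changes over heat-shocked wild type of -0.45 (adjusted p = 0.0583) in hsp-otd and -0.16 (adjusted p = 0.497) in hsp-Otx2.

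RpL34a and RpS10a differed between the transgenic lines. RpL34a had 2995, 2408, 2925 and 2816 in hsp-otd and 1638, 1909.7, 1897 and 2025 in hsp-Otx2, against 2452, 1926 and 2191 in heat-shocked wild type and 2986, 2539, 2573, 2293 and 1815 in untreated wild type. All hsp-otd arrays lay above all hsp-Otx2 arrays, at 0.58 (SE 0.13, adjusted p = 0.00236) on the log2 scale, and neither line passed over heat-shocked wild type, at 0.35 (adjusted p = 0.0692) for hsp-otd and -0.23 (adjusted p = 0.217) for hsp-Otx2. RpS10a had 1974, 1893, 1848 and 1847 in hsp-otd and 1108, 1403, 1319 and 1279 in hsp-Otx2, against 1636, 1759 and 1722 in heat-shocked wild type and 1328, 644, 1386, 1232 and 985 in untreated wild type. hsp-otd was above hsp-Otx2 by 0.57 (SE 0.18, adjusted p = 0.0212) with no overlap between arrays. This difference did not pass without hsp-otd array 1 or hsp-Otx2 array 1 (adjusted p = 0.0523 and 0.0683). By limma with brightness as a covariate it was kept, at 0.59 (adjusted p = 0.0279). Among the dimmer arrays, with 1 of hsp-otd, it was lost, at 0.65. The partners RpL34b and RpS10b had hsp-otd over hsp-Otx2 log2 fold changes of -0.23 (adjusted p = 0.235) and -0.15 (adjusted p = 0.278).

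RpS14a and RpS14b, neighbouring genes for the same protein whose signals these probes may share, had log2 fold changes of -0.44 (adjusted p = 0.0432) and -0.51 (adjusted p = 0.0399) in hsp-otd over heat-shocked wild type. Both calls were lost without hsp-otd array 3 or 4 or heat-shocked wild type array 1 or 3, that of RpS14a also without hsp-otd array 2 and that of RpS14b without heat-shocked wild type array 2 (adjusted p between 0.0512 and 0.134). RpS15Aa and RpS15Ab were at 0.24 (adjusted p = 0.0513) and 0.02 (adjusted p = 0.814), and RpL10Ab and RpS28b at -0.12 (adjusted p = 0.39) and -0.13 (adjusted p = 0.153). RpL10Aa ran from 20 to 49.7 in hsp-otd, from 20 to 41.9 in hsp-Otx2, from 20 to 99.2 in heat-shocked wild type and from 20 to 44.3 in untreated wild type, with most arrays at the floor. RpL22-like, known from the testis, was at the floor of 20 in 3 of 4 hsp-otd, 3 of 4 hsp-Otx2, 2 of 3 heat-shocked wild type and all 5 untreated arrays. RpS19b, known from germ line stem cells, had 20, 51.7, 69 and 109.5 in hsp-otd and 53.4, 52.5, 20 and 20 in hsp-Otx2, against 61.6, 20 and 54.6 in heat-shocked wild type and 52.1, 84.8, 92.1, 71.1 and 20 in untreated wild type. RpL10Aa, RpL22-like and RpS19b passed in none of the 4 comparisons. RpL22, the partner of RpL22-like, had 16296 to 18321 in hsp-otd and 15922 to 18086 in heat-shocked wild type, at 0.02 (adjusted p = 0.856).

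Directly compared, hsp-otd and hsp-Otx2 differed in 14 of 85 ribosomal protein genes by limma. Of these, 6 were higher and 8 lower in hsp-otd, where 31.1% of all genes passed, 17.1% higher and 14.1% lower. The 8 lower genes were all single-copy and included RpL32, RpL37A, RpL8, sta, RpS3, RpS27 and RpS16. Of the 6 higher genes, 5 were duplicated or "-like", among them RpL37-2, RpL34a, RpS10a and RpL24-like, and the other was RpS9, whose homologues are linked to reading accuracy. RpS9 had 21274, 20558, 21978 and 21978 in hsp-otd and 19847, 18667, 19396 and 19132 in hsp-Otx2. The difference was 0.15 (SE 0.05, adjusted p = 0.0307) on the log2 scale. RpS9 read higher in every hsp-otd array, and its sign turned with scaling to a common median, at -0.14. RpS3 was lower in every hsp-otd array than in any hsp-Otx2 array, at -0.58 (SE 0.17, adjusted p = 0.0182). For sta and RpS27, at -0.60 and -0.47 on the log2 scale, hsp-otd and hsp-Otx2 arrays overlapped. RpL37A, at -0.49 (adjusted p = 0.0171), did not overlap between lines, whereas RpL8, at -0.39 (adjusted p = 0.0145), and RpS16, at -0.25 (adjusted p = 0.0278), did. This comparison and the one with heat-shocked wild type share the hsp-otd arrays. Scaled to a common median 4 genes were higher and 1 lower, and without normalization 2 and 1. The count of 14 became 36 without hsp-Otx2 array 3, the brightest of all arrays. Leaving out hsp-Otx2 array 1, 2 or 4 gave 6, 4 and 9, and leaving out hsp-otd array 2, 3 or 4 gave 9, 7 and 7. RpL32 and RpL8 passed whichever array was left out. RpS9, sta, RpS3, RpL37A, RpS27 and RpS16 did not pass without hsp-Otx2 array 2 (adjusted p between 0.059 and 0.101), and each was also lost without at least 1 other array.

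Between heat-shocked and untreated wild type 2 of 85 ribosomal protein genes passed by limma, 1 higher and 1 lower, where 23.1% of all genes passed, 9.84% higher and 13.3% lower. RpS10a was higher in heat-shocked wild type, by 0.67 (SE 0.18, adjusted p = 0.0149) on the log2 scale, and the groups did not overlap. Without heat-shocked array 2 its adjusted p was 0.0502. By limma with brightness as a covariate the RpS10a call was kept, at 0.64 (adjusted p = 0.0423), and among the dimmer arrays it was lost, at 0.68. By limma 0 of the 65 single-copy genes passed, 5 had an unadjusted p below 0.05, and 50 of them had a positive fold change, with a median of 0.10 on the log2 scale. Without a trend of variance on level limma again called 0 of them. Beside this stand the 2 brighter untreated arrays, which read lower than the other 3 for 65 of 85 members. With a normalization fitted without the ribosomal protein probe sets 4 genes were higher and 1 lower, and without normalization 0 and 1. The count of 2 became 4 without untreated array 1, 5 without untreated array 3 and 1 without heat-shocked array 2. Log2 fold changes were 0.35 (adjusted p = 0.189) for RpS3, 0.37 (adjusted p = 0.0624) for RpL40, 0.24 (adjusted p = 0.415) for RpL3, which reaches closest to the peptidyl transferase centre, and -0.07 (adjusted p = 0.54) for RpLP0. Since the labels give no collection or ageing for untreated wild type, heat shock cannot be told apart from these in this comparison.

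Among the 65 single-copy genes, the size of the fold change went with the level of the probe set, as a description across genes. The level was the mean over all 16 arrays, including those of the fold change. Level and fold change are therefore not independent, and part of the correlation may be built in. The Pearson correlation between the mean level and the fold change over heat-shocked wild type was 0.44 for hsp-otd and 0.44 for hsp-Otx2. It was 0.38 for hsp-otd over hsp-Otx2 and -0.56 for heat-shocked over untreated wild type. The dimmer 33 genes had a median log2 fold change in hsp-otd of -0.35 and the brighter 32 one of -0.10. The genes share arrays and normalization, and no test was made. Each group held 14 genes that were lower in hsp-otd.

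Where a gene has several probe sets, some disagreed. RpL3 has 4, of which the probe set of highest mean was taken for the counts. It had a log2 fold change of -0.36 (adjusted p = 0.209) in hsp-otd over heat-shocked wild type, and another had -1.09 (adjusted p = 0.00413). All 4 were lower in hsp-otd, and the counted one fell least. The remaining ones had geometric means of 8797.3 and 11295 in hsp-otd, against 17903.4 and 15527.8 in heat-shocked wild type. For RpL6, RpL9, RpL13A and RpS14a the counted probe set also fell less than the other, while for RpL8 it fell more. RpS9 did not pass on its probe set of highest mean, at 0.11 (adjusted p = 0.136), and passed on its other, at 0.36 (adjusted p = 0.00223). For RpL28 the probe sets were at 0.33 (adjusted p = 0.00288) and -0.06 (adjusted p = 0.705). RpLP2, RpS19a and RpS2 had probe sets that also lead to another gene and were not counted. That for RpLP2, the third stalk protein, or Rpp30 was at 0.11 (adjusted p = 0.412), that for RpS19a or RpS19b at -0.40 (adjusted p = 0.0113) and that for RpS2 or Arpc1 at -1.36 (adjusted p = 0.0173) in the same comparison.

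Genes that build ribosomes had more calls higher than lower in hsp-otd. A list of 29 tested ribosome biogenesis genes (RNA polymerase I subunits, box C/D and H/ACA particle proteins and assembly factors) had 12 members higher and 0 lower in hsp-otd than in heat-shocked wild type, beside backgrounds of 16.6% and 13%, with a median log2 fold change of 0.45. The assembly factor wcd was at 0.75 (adjusted p = 1.38e-05), the GTPase Non1 at 0.58 (adjusted p = 2.92e-05), the nucleolar protein Surf6 at 1.01 (adjusted p = 9.87e-05) and fibrillarin (Fib), the methyltransferase of ribosomal RNA, at 0.45 (adjusted p = 0.000127). With brightness as a covariate 9 were higher and 0 lower, where 11.7% of all genes passed in either direction. In hsp-Otx2 over heat-shocked wild type 10 of the 29 were higher and 8 lower, beside 18.1% and 20% of all genes. The median log2 fold change was -0.08. The genes named for it, chosen by adjusted p, were all higher and do not stand for the list. They were wcd at 1.19, Surf6 at 1.63, the kinase RIOK1 at 2.13 and the nucleolar protein mbm at 0.86 on the log2 scale. In hsp-otd over hsp-Otx2 13 were higher and 6 lower, beside 17.1% and 14.1%, with the large polymerase I subunit Polr1A at 0.84 (adjusted p = 4.52e-08) and the pseudouridine synthase Nop60B at 0.82 (adjusted p = 2.07e-07). In heat-shocked over untreated wild type 2 were higher and 10 lower, beside 9.84% and 13.3%, with wcd at -0.77 (adjusted p = 4.05e-06) and the GTPase Ns3 at -1.02 (adjusted p = 1.47e-05).

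**Figure D5:**
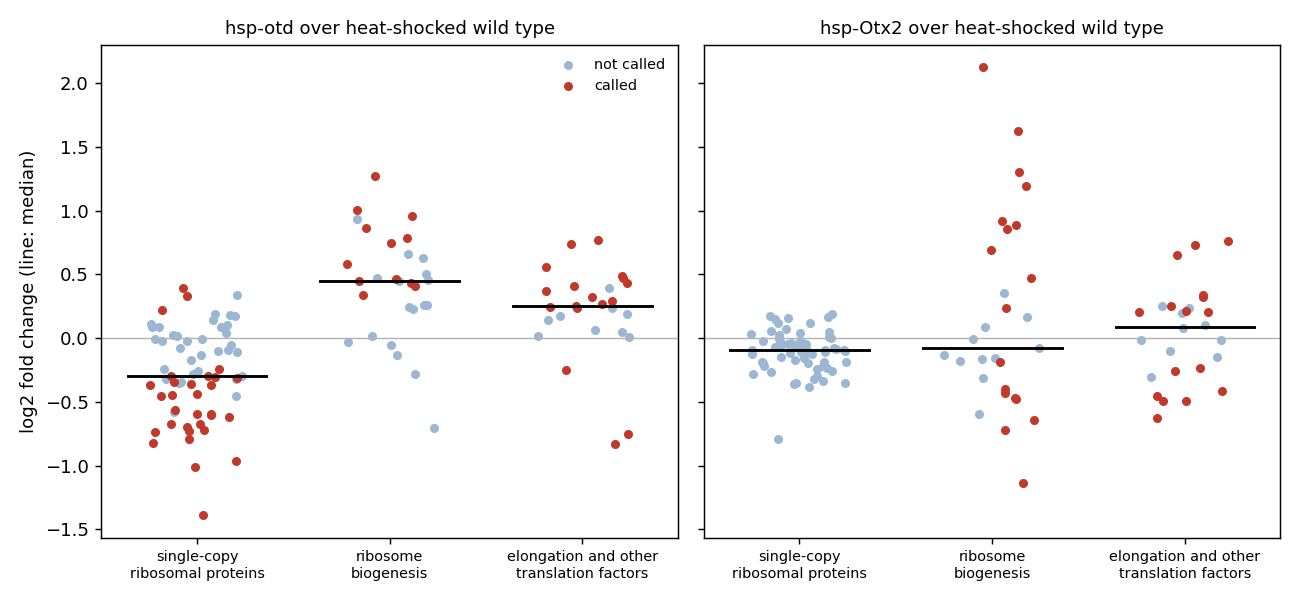
Each point is 1 gene, red where it passed at an adjusted p below 0.05, and the line is the median of its column. The vertical axis gives the log2 fold change over heat-shocked wild type, in hsp-otd on the left and in hsp-Otx2 on the right. In hsp-otd the median is -0.30 over 65 single-copy ribosomal protein genes, 0.45 over 29 ribosome biogenesis genes and 0.25 over 26 translation factor genes, and in hsp-Otx2 the medians are -0.09, -0.08 and 0.09.

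Among 26 elongation factors and other partners in translation, 14 were higher and 3 lower in hsp-otd than in heat-shocked wild type, beside 16.6% and 13% of all genes. The initiation factor subunits eIF3a, eIF3g1 and eIF3l were at 0.56 (adjusted p = 0.000185), 0.43 (adjusted p = 0.000585) and 0.41 (adjusted p = 0.000589), and eEF1alpha2, which carries transfer RNA to the ribosome, at 0.77 (adjusted p = 0.000524). With brightness as a covariate 5 were higher and 0 lower, where 11.7% of all genes passed in either direction. In hsp-Otx2 over heat-shocked wild type 9 were higher and 7 lower, beside 18.1% and 20% of all genes, including eIF3l at 0.73 (adjusted p = 9.53e-07) and the cap-binding protein eIF4E1 at -0.49 (adjusted p = 6.38e-05). In hsp-otd over hsp-Otx2 11 were higher and 2 lower, beside 17.1% and 14.1%, with eIF1 at 0.55 (adjusted p = 2.03e-05). In heat-shocked over untreated wild type 1 was higher and 3 were lower, beside 9.84% and 13.3%.

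Of 17 regulators of ribosome production, 5 were higher and 1 lower in hsp-otd than in heat-shocked wild type, where 29.7% of all genes passed. With brightness as a covariate 2 were higher and 1 lower, where 11.7% of all genes passed. M1BP and Dref, factors that bind ribosomal protein gene promoters in flies, were at 0.65 (adjusted p = 0.000102) and 0.70 (adjusted p = 0.00102), and Max, the partner of Myc, at 1.12 (adjusted p = 7.49e-06). The one lower gene was Thor, the fly 4E-BP that holds back cap-dependent translation, at -0.47 (adjusted p = 0.00237). In hsp-Otx2 over heat-shocked wild type 4 were higher and 2 lower, where 38% of all genes passed, with M1BP at 0.76 (adjusted p = 9.69e-06), Dref at 0.84 (adjusted p = 0.000118) and Thor at -0.89 (adjusted p = 4.12e-06). In hsp-otd over hsp-Otx2 5 were higher and 2 lower, where 31.1% of all genes passed. In heat-shocked over untreated wild type 0 were higher and 3 lower, where 23.1% passed, with Max at -0.97 (adjusted p = 1.43e-05).

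Markers of other cells and of late stages also differed between the groups, and their part in the ribosomal protein results was not tested. Germ line markers are given because some duplicated ribosomal protein genes are known from the germ line. In hsp-otd over heat-shocked wild type 5 of 8 were higher and 1 lower, where 29.7% of all genes passed, and in hsp-Otx2 over heat-shocked wild type 5 were higher and 0 lower, where 38% did. With brightness as a covariate these counts were 2 and 0 in hsp-otd, where 11.7% of all genes passed, and 4 and 0 in hsp-Otx2, where 29.7% did. Their summed level was 4859 to 5683 in hsp-otd and 5018 to 5784 in hsp-Otx2, against 3623 to 3698 in heat-shocked wild type and 3366 to 4459 in untreated wild type. The pole plasm gene osk was at the floor in every hsp-otd, heat-shocked and untreated wild type array. Only its hsp-Otx2 arrays could bring it past the filter of 3 arrays above the floor. Any count in hsp-Otx2 that includes osk therefore rests in part on that filter.

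Late embryo cuticle genes summed to 12955 to 14116 in hsp-otd and 9531 to 11643 in hsp-Otx2, against 9132 to 12638 in heat-shocked wild type and 49315 to 50911 in untreated wild type. In heat-shocked over untreated wild type 11 of 12 were lower and 0 higher, beside 13.3% and 9.84% of all genes. In hsp-otd over heat-shocked wild type 7 were higher and 1 lower, beside 16.6% and 13% of all genes. In hsp-Otx2 over the same control 5 were higher and 3 lower, beside 18.1% and 20%. Of 8 muscle genes 5 were lower and 0 higher in hsp-otd, and by limma 0 passed in hsp-Otx2, where 2 had an unadjusted p below 0.05. Of 5 neuron genes 1 was higher and 0 lower in hsp-otd, and 0 were higher and 1 lower in hsp-Otx2, against the same control. The hsp-otd and hsp-Otx2 shares of all genes given above also stand beside the muscle and neuron counts.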

How the data were processed

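Each array's deposited column holds 1 linear intensity per probe set, as the authors gave it. No image or scaling software is named in the labels. They were quantile normalized over all 16 arrays with limma 3.58.1 in R 4.3.3 (32 control probe sets left out), raised to a floor of 20 and turned into log2 values. To be tested, a probe set had to exceed the floor in 3 arrays or more, which 12301 did and 1737 did not. Linear models with 1 coefficient per group (lmFit, eBayes with a trend of variance on level) used all 4 groups and 12 residual degrees of freedom, and p-values were Benjamini-Hochberg adjusted over all probe sets tested, with a threshold of 0.05. A gene with several probe sets was counted by the one with the highest mean. Levels are normalized intensities in linear units and differences are on the log2 scale.

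Probe-set stems were matched to gene symbols through a RefSeq gene table: 13098 led to 1 symbol, 453 to several and 487 to none. The files name no genome build and no coordinates or sequences were used. Every deposited column was mapped, so 0 were left unused, and no pair of arrays held identical values. Groups and replicate numbers came from the sample titles.

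The members and gene lists were chosen with earlier results of these data known. Named are the duplicated and "-like" genes with their partners, the 8 highest and 8 lowest passing single-copy genes of a comparison, a fixed set of members with known roles, and up to 4 genes per list with the smallest adjusted p. The fit was tested on simulated data. Alternatives covered normalization, floor, filter, groups in the fit, array weights, a replicate block and leaving out each array. The fit without a variance trend, brightness as a covariate and the use of dimmer arrays alone were chosen after seeing the data. Results for some members are counted but not reported here by name.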

Additional observations from a re-analysis of the deposited data

Results flagged for a closer look

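Among the named genes, 11 of 141 groups of 4 or 5 arrays were flagged because 1 array lay far from the others. A rate of about 1 in 20 would hold for independent groups without a floor. These groups share arrays, and a single array above the floor is always flagged where the others are at it. The count is therefore not read as an excess. Heat-shocked wild type, with 3 arrays, could not be examined this way. Array 1 of hsp-otd, the dimmest of its group, read high for RpS27 (15922 against 11985 to 12514 in the other 3) and for RpL37-1 (15207 against 12400 to 12772). Array 4 of hsp-otd read low for RpL5 (10784 against 12260 to 12400). In hsp-Otx2, array 4 was low for RpLP0-like (1741 against 1931 to 1935) and array 2 for RpL24-like (3271 against 3701 to 3786). In untreated wild type, array 4 was high for RpL21 (15374 against 12872 to 13530) and array 5 low for RpL22 (15137 against 16117 to 16436). The others were genes near the floor of 20, where a single array rose above it: RpL10Aa in hsp-Otx2 array 3 (41.9) and untreated array 1 (44.3), and RpL22-like in hsp-otd array 4 (30.9) and hsp-Otx2 array 3 (47.6).

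The change relative to heat-shocked wild type differed between the transgenic lines, by the direct limma contrast, for 14 members, of which 12 are given here. The log2 differences of hsp-otd over hsp-Otx2 were 1.51 for RpL37-2, 0.58 for RpL34a, 0.57 for RpS10a, 0.34 for RpL24-like and 0.15 for RpS9. They were -0.25 for RpS16, -0.39 for RpL8, -0.47 for RpS27, -0.49 for RpL37A, -0.58 for RpS3, -0.60 for sta and -0.62 for RpL32.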

How the results depend on the processing

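The count of ribosomal protein genes called in hsp-otd over heat-shocked wild type (39) was 17 without normalization, 19 with array weights, 20 without a variance trend, 5 with array brightness as a covariate and 15 among arrays with a mean under 800, and rose to 55 with a normalization fitted without the members and 58 with the compared groups alone. Over leaving out each array it ran between 17 and 37. In hsp-Otx2 over heat-shocked wild type (4) it was 7 with a normalization fitted without the members, and between 4 and 7 when each array was left out. In hsp-otd over hsp-Otx2 (14) it was 5 with median scaling, 3 without normalization, 28 with array weights, 6 without a variance trend and 23 with the compared groups alone, and between 4 and 36 when each array was left out. In heat-shocked over untreated wild type (2) it was 1 without normalization, 5 with a normalization fitted without the members, 1 among arrays with a mean under 800 and 1 with the compared groups alone, and between 1 and 5 when each array was left out. Signs turned for named members in hsp-otd over heat-shocked wild type: with a normalization fitted without the members, RpS15Ab at -0.25 and RpL21 at -0.042; with median scaling, RpL19 at -0.010, RpL28 at -0.17 and RpL21 at -0.18; with brightness as a covariate, RpL17 at 0.079 and RpLP1 at 0.0043. RpS9 in hsp-otd over hsp-Otx2 came to -0.14 with median scaling. The causes were not tested. Of 43 calls of named members, 8 were kept in direction and call under every alternative run, planned or added, among them RpL37-2 and RpLP0-like in hsp-Otx2, RpS3 in hsp-otd, and RpL34a and RpL32 in hsp-otd over hsp-Otx2. Without normalization the median of all genes moved by over 0.1, to 0.72, 0.30, 0.28 and -0.41 on the log2 scale for hsp-otd and hsp-Otx2 over heat-shocked wild type, hsp-otd over hsp-Otx2 and heat-shocked over untreated wild type.

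Arrays with the same replicate number did not deviate together (correlations between -0.07 and 0.12 over probe sets), so the numbers are taken as names. With the replicate number as a block the counts were 34 in hsp-otd and 4 in hsp-Otx2 over heat-shocked wild type, 23 in hsp-otd over hsp-Otx2 and 2 in heat-shocked over untreated wild type.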
